A study of Mus musculus with 6 samples.

Results

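The genes of the contractile apparatus of smooth muscle, pericytes and myoepithelium were examined in mammary epithelial cells (MECs) lacking p53 that had been exposed to tamoxifen for a limited time. A list of 34 genes was taken, and a gene was measured where a probeset is annotated with its symbol alone. This gave 31 of the 34 genes, with 1 probeset each, among 17418 genes on the array. Myl9 and Actc1 had no such probeset, and the probeset of Flna is annotated with 3 genes, so these genes are not analysed here.

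The MECs came from 3 pools of mice given a 5 mg tamoxifen pellet and 3 pools of mice given a sham pellet (control). In both groups, duct fragments of 8-week-old female p53 null Balb/c mice had been transplanted into cleared inguinal fat pads of Balb/c hosts with wild-type p53, so that the fat pad around the outgrowth is that of the host. Pellets stayed in place for 13 weeks, and glands were collected 4 weeks after their removal. All mice, controls included, had received 100 ug of 17-beta-estradiol (E2) 8 h before collection. The sample labels give a host age of 8 weeks at implantation, whereas the study's methods give a later one. Pools held 3 to 5 mice by the labels. MECs were released by collagenase and hyaluronidase and washed free of fat, and the sources describe no sorting step that would remove vessel cells.

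Each pool was hybridised to its own array, and mean intensity was 395.1 to 403.4 per array. Keratin genes were read beside the epithelial label. The luminal keratin gene Krt18 had intensities of 9843 to 10687 in tamoxifen pools and 10199 to 10760 in control pools. The basal keratin gene Krt14 had 1749 to 1947 in tamoxifen pools and 1964 to 2219 in control pools. These values do not show that the pools were free of other cells. The fibroblast gene Dcn had 11339 to 12310 in tamoxifen pools and 10850 to 11981 in control pools. The endothelial gene Cdh5 had 5938 to 6075 in tamoxifen pools and 4987 to 5698 in control pools. Intensities of unlike probesets do not give the share of each cell type. Among 10 leukocyte markers, the tamoxifen 2 pool stood apart, where sums ran from 7041 to 10903 in tamoxifen pools, the highest being tamoxifen 2, and from 7797 to 7876 in control pools. Control 1 lay highest on 17 basal epithelial markers, with a median of 0.21 above the gene means on the log2 scale. Tests were made with limma on log2 intensities, and genes are said to have risen or fallen only at a Benjamini-Hochberg adjusted p under 0.05 over all 22369 probesets. A log2 difference is that of tamoxifen minus control throughout. The p-values measure the spread between pools, and the smallest p that exact permutation of 3 and 3 pools allows for 1 gene is 0.1.

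Smooth muscle cells contract when calcium activates myosin light chain kinase, which lets myosin pull on filaments of smooth muscle actin. Myoepithelial cells, the contractile basal cells of the mammary gland, use much of the same apparatus to eject milk in response to oxytocin. Smooth muscle cells and pericytes of the vessel wall carry in addition desmin filaments, the ion channels of vascular tone and the growth factor receptors by which vessels recruit them. Many genes of this apparatus are driven by serum response factor (SRF), which binds a DNA element called the CArG box, with its coactivator myocardin. The list was accordingly divided into classes. The vessel wall class has 14 genes and the class shared with myoepithelium 12 (11 measured). The broad cytoskeletal class has 8 genes of the actin cytoskeleton (6 measured), not all of them broadly expressed. The class names are labels and do not mean that a gene is specific to that tissue. Des, Synpo2, Pgm5, Casq2 and Ldb3 of the vessel wall class and Fhl1 of the broad class are also genes of skeletal muscle. Counts for the vessel wall class are therefore not particular to vessels.

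Most vessel wall genes had higher intensities after tamoxifen than in controls, with desmin, synaptopodin 2 and Pgm5 in front, while smooth muscle actin was nearly level. No single gene passed the adjusted threshold. By limma 0 of the 31 genes rose and 0 fell, against 0.282% and 0.107% of all probesets, and the methods' t-test likewise gave 0 and 0 after adjustment. At an unadjusted p under 0.05, 8 of 14 vessel wall genes were higher, against 2 of 11 shared genes and 1 of 6 broad cytoskeletal genes, and 0 were lower in any class. Over all probesets the background was 6.55% higher and 5.87% lower. A positive log2 difference was found in 24 of the 31 genes and a negative one in 7, against 44.8% and 55.2% of all probesets. All tamoxifen pools lay above all control pools in 13 of the 31 genes and below them in 0, against 9.79% and 11.2% of all probesets. The median log2 difference was 0.26 in vessel wall genes, 0.13 in shared genes and -0.0034 in broad cytoskeletal genes, beside -0.02 over all genes. Without tamoxifen 3, 5 vessel wall genes and 1 shared gene were at an unadjusted p under 0.05. Without control 1 the counts came closer, at 6 of 14 vessel wall and 5 of 11 shared genes, with medians of 0.25 and 0.19. Shares of all probesets with these arrays left out are not given. The classes were not tested against each other, since the genes were proposed with earlier results of these data known.

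**Figure D1:**
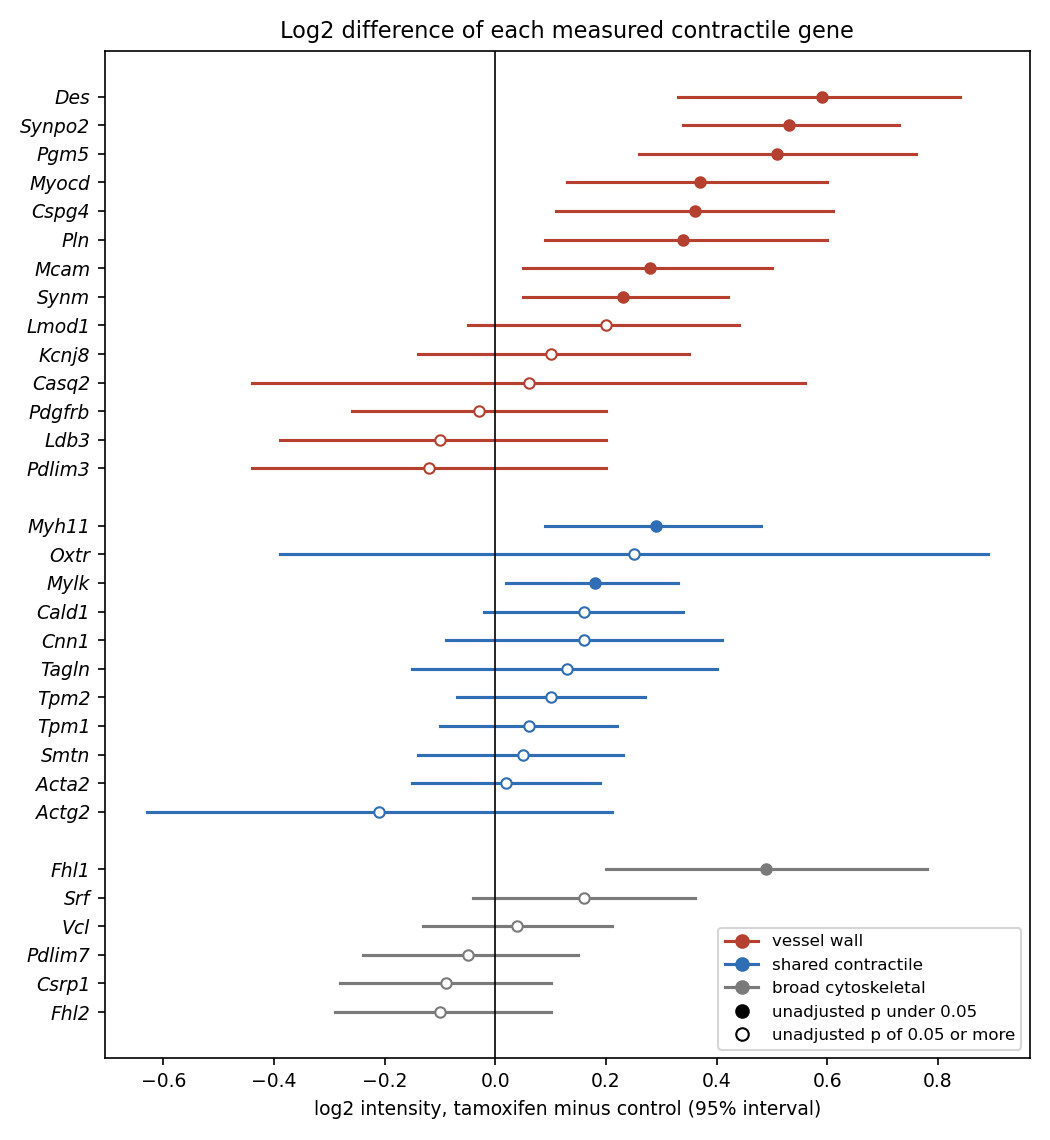
Log2 difference in intensity (tamoxifen minus control, horizontal axis) of the 31 measured genes, grouped by class, with 95% intervals from limma and 3 pools per group. Filled points mark an unadjusted p under 0.05, which 8 vessel wall genes, 2 shared genes and 1 broad cytoskeletal gene had, all to the right of 0.

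Des, Synpo2 and Pgm5 had the largest differences of the 31 genes. Synpo2 encodes synaptopodin 2, an actin-binding protein of Z-discs and smooth muscle. Its intensity was 923, 1002 and 906 in tamoxifen pools 1 to 3, against 619, 638 and 700 in control pools 1 to 3. Every tamoxifen pool lay above every control pool, and the log2 difference was 0.53 (SE 0.08), an FC of 1.45 with an adjusted p of 0.0769 from limma (0.0250 to 0.278 over the alternatives, 6 of which called it). Des encodes desmin, the intermediate filament protein of muscle cells. Its intensity was 522, 569 and 516 in tamoxifen pools and 311, 369.5 and 396 in control pools. The groups did not overlap here either, and the log2 difference was 0.59 (SE 0.11, 95% interval 0.33 to 0.84) with an adjusted p of 0.115 from limma (0.0381 to 0.325 over the alternatives, 2 of which called it). Pgm5, a phosphoglucomutase-like protein of muscle adhesion sites, had 985, 910.4 and 1029.7 in tamoxifen pools and 667, 621 and 774 in control pools. Its log2 difference was 0.51 (SE 0.10), again with all tamoxifen pools above (adjusted p = 0.141 from limma). By the methods' t-test these 3 genes, and 0 genes in the other direction, met the study's selection of an unadjusted p under 0.01 with an FC above 1.4, as did 0.832% of all probesets upwards and 0.308% downwards. With limma's p in the same selection there were 4, Fhl1 being added, and 0, against 1.38% and 0.72% of all probesets. The 3 genes are part of the study's own list from these arrays and no independent evidence.

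The 250 bases before the transcription start of these 3 genes (RefSeq, GRCm38.p6) are shown because they carry the largest differences, and none of them holds a CArG box, that is, the pair CC, then 6 bases of A or T, then the pair GG.
Synpo2 (chr3:123236150-123236399, minus strand): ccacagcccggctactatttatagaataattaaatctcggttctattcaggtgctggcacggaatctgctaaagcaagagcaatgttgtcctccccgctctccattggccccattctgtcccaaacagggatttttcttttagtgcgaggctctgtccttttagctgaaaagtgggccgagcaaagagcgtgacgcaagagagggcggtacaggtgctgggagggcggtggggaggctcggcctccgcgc
Des (chr1:75360042-75360291, plus strand): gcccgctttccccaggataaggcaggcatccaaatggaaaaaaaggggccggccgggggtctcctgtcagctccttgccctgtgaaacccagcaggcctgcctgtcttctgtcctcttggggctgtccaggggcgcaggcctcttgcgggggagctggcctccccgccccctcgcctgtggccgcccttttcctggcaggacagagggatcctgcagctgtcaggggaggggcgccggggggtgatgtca
Pgm5 (chr19:24861843-24862092, minus strand): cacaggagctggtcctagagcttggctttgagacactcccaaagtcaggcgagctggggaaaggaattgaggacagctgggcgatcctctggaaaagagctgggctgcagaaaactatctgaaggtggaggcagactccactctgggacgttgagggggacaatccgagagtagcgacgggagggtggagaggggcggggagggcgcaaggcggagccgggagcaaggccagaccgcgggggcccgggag
The element reads alike on both strands, so that 1 search covers both. That these letters are absent from the windows says nothing of SRF at these genes, whose elements may lie elsewhere.

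Regulators and surface proteins of the vessel wall were split. Myocd encodes myocardin itself, and its intensity was 230.3, 191 and 219.5 in tamoxifen pools, against 165, 156 and 176 in control pools. The lowest tamoxifen pool lay above the highest control pool, with a log2 difference of 0.37 (SE 0.10, adjusted p = 0.226 from limma). Cspg4, the NG2 proteoglycan of pericytes, had 247, 198 and 233 after tamoxifen and 170.2, 169.5 and 189 in controls (log2 difference 0.36, adjusted p = 0.268). Mcam encodes the adhesion molecule CD146 of vessel cells, and it had 1319, 1124 and 1272 in tamoxifen pools and 962, 998 and 1100.2 in control pools. In each of these genes the groups did not overlap, and tamoxifen 2 was the lowest tamoxifen pool. Pdgfrb, the platelet-derived growth factor receptor of pericytes and smooth muscle, had 1118, 1065 and 1114 after tamoxifen and 1256, 1005 and 1118 in controls. The groups overlapped, with a log2 difference of -0.03 (95% interval -0.26 to 0.20), or 0.05 without control 1. Kcnj8 encodes the pore of the ATP-sensitive potassium channel of pericytes, and its log2 difference was 0.10 with an interval of -0.14 to 0.35, or 0.03 without tamoxifen 3 and 0.20 without tamoxifen 2. The log2 differences of Cspg4, Kcnj8 and Pdgfrb thus ran from -0.03 to 0.36, and the differences between these genes were not tested. They do not stand for all pericyte genes. The list of further vessel wall genes, read below, holds others, such as Rgs5 (0.17), Notch3 (0.27), Heyl (-0.02) and Cox4i2 (-0.02). Of the 24 genes measured on that list 19 had a positive log2 difference and 5 a negative one. Over all probesets these shares were 44.8% and 55.2%.

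The calcium store genes Pln and Casq2 had intensities under 100 in all pools, and the filament genes differed among themselves. Pln encodes phospholamban, which restrains the calcium pump of the sarcoplasmic reticulum, and it had 71.0, 67.8 and 75.2 in tamoxifen pools against 49.7, 62.8 and 56.6 in control pools. Its log2 difference was 0.34 (adjusted p = 0.283 from limma), or 0.23 after an offset of 32 was added to the intensities. Every tamoxifen pool of Pln lay above every control pool. Casq2, the calsequestrin that stores calcium, had 67.0, 79.4 and 77.9 after tamoxifen and a wider 96.1, 70.1 and 54.2 in controls (log2 difference 0.06, SE 0.21). Synm, which encodes the intermediate filament protein synemin, had a log2 difference of 0.23 with no overlap between groups. Lmod1, an actin nucleator of smooth muscle, had 0.20, with overlap, or 0.12 without control 3. The Z-disc genes Ldb3 and Pdlim3 had -0.10 and -0.12, and the sign of both turned with array weights. Pdlim3 had 1796, 1673 and 2072 in tamoxifen pools and 2359, 1851 and 1842 in control pools, so that control 1 alone lay above the rest, and its log2 difference was -0.01 without control 1.

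Of the genes shared with myoepithelium, the actin itself was nearly level between the groups. Acta2, the smooth muscle actin, had 6622, 6989 and 6869 in tamoxifen pools, against 7056, 6418 and 6733 in control pools. The groups overlapped, and the log2 difference was 0.02, turning to -0.03 under quantile normalization. Its 95% interval was -0.15 to 0.19. Tagln (transgelin) and Cnn1 (calponin), actin-binding proteins of smooth muscle, had log2 differences of 0.13 and 0.16, both with overlap. Leaving out 1 array moved Tagln between 0.03 (without control 2) and 0.22 (without control 1), and Cnn1 between 0.09 and 0.24 with the same arrays left out. Cnn1 had 1257, 1376 and 1465 in tamoxifen pools and 1370, 1117 and 1193 in control pools. Tpm1, a tropomyosin, had 2837, 2765 and 3028 after tamoxifen and 2742, 2743 and 2778 in controls, and both Tpm1 (0.06) and Tpm2 (0.10) had small log2 differences. Smtn, the smooth muscle protein smoothelin, had 0.05. Actg2, the enteric smooth muscle actin, had -0.21, and the high value of 511 in control 1, against 349 and 332 in the other controls and 309 to 354 after tamoxifen, moved it: without control 1 the log2 difference was -0.02.

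Myosin and its kinase had the smallest p in the shared class. Myh11, the smooth muscle myosin heavy chain, had 1745, 1594 and 1744 in tamoxifen pools, against 1423, 1288 and 1454 in control pools. The groups did not overlap, and the log2 difference was 0.29 (SE 0.08, adjusted p = 0.255 from limma). Mylk, the light chain kinase that starts contraction, had 1003, 956 and 996 after tamoxifen and 890.3, 841 and 881 in controls, with a log2 difference of 0.18 (SE 0.07, adjusted p = 0.358). Cald1, the actin-binding protein caldesmon, had 1379, 1427 and 1436 in tamoxifen pools and 1344, 1192 and 1262 in control pools. Its groups were apart by a smaller margin, with a log2 difference of 0.16. The oxytocin receptor gene Oxtr had the largest SE of the list (0.26), with 303, 265 and 391 in tamoxifen pools and 390.0, 225 and 214 in control pools. The interval of its log2 difference, -0.39 to 0.89, spans 0 widely, and the value was 0.53 without control 1 and 0.09 without tamoxifen 3 or control 3.

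**Figure D2:**
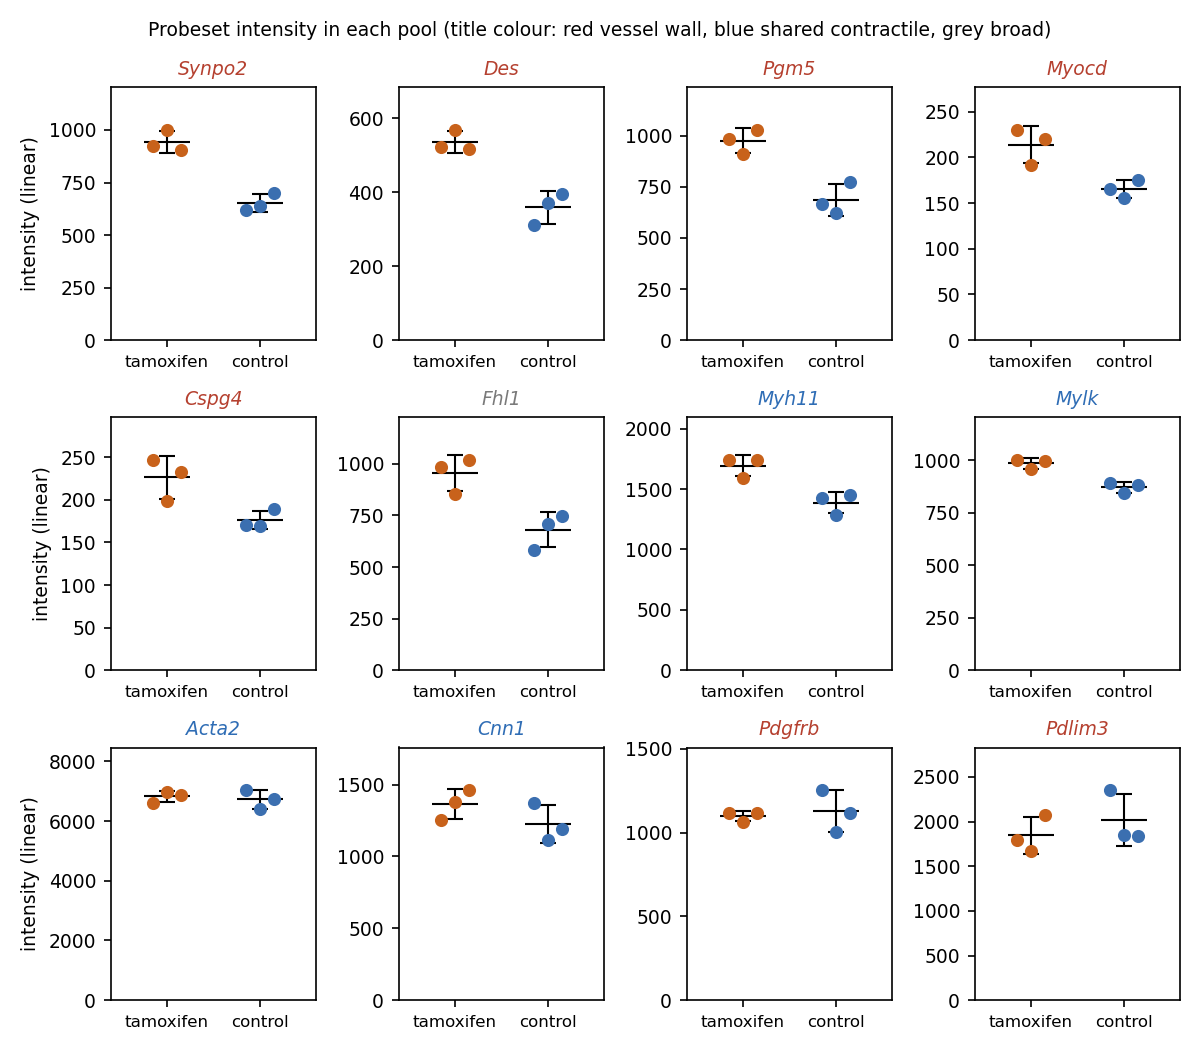
Linear probeset intensity (vertical axis, from 0) of 12 genes in the 3 tamoxifen pools and the 3 control pools, with the mean and SD of each group (points left to right are pools 1 to 3). In Synpo2, Des, Pgm5, Myocd, Cspg4, Fhl1, Myh11 and Mylk all tamoxifen points lie above all control points, whereas the groups overlap in Acta2, Cnn1, Pdgfrb and Pdlim3.

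Among the broad cytoskeletal genes, Fhl1 stood apart from the others. Fhl1 encodes a LIM domain protein of striated and smooth muscle, and its intensity was 986, 856 and 1021 in tamoxifen pools, against 584, 709 and 748 in control pools. All tamoxifen pools were above all control pools, with a log2 difference of 0.49 (SE 0.12), an FC of 1.41 and an adjusted p of 0.208 from limma (0.0462 to 0.483 over the alternatives, of which array weights called it). Its relative Fhl2 had 733, 659.8 and 721 after tamoxifen and 743, 805 and 711 in controls, a log2 difference of -0.10. Srf, which encodes the transcription factor itself, had 1253, 1199 and 1288 in tamoxifen pools and 1219, 1064 and 1068 in control pools. Control 1 reached above the lowest tamoxifen pool, and the log2 difference was 0.16 (adjusted p = 0.501). Vcl (vinculin), which links actin to adhesion sites, had 2106, 1954 and 2116 after tamoxifen and 1919, 2003 and 2083 in controls. Csrp1, a LIM domain protein bound to actin cables, had 8489, 8759 and 8952 in tamoxifen pools and 10079, 8978 and 8859 in control pools. Vcl, Csrp1 and Pdlim7, an adaptor of actin filaments, had log2 differences of 0.04, -0.09 and -0.05, all with overlap.

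CArG boxes lay before the start of 7 of the 29 listed genes with a RefSeq promoter entry (24.1%), against 1.62% of 27025 genes. Actg2, Myh11, Tagln, Myocd and Pdgfrb had no entry. The boxes were in Actc1, Fhl1, Fhl2, Ldb3, Myl9, Srf and Vcl, and of the 11 genes higher at an unadjusted p under 0.05, 9 had an entry and 1, Fhl1, held a box. The upstream windows of Srf and of Fhl1 are shown with the box in capitals, and that of Acta2 with capitals for a pair of elements that differ from the box by a single G or C among the 6 inner bases. Such near matches lay before 5 of the 29 genes (17.2%) and 8.33% of all genes.
Srf (chr17:46556163-46556412, minus strand): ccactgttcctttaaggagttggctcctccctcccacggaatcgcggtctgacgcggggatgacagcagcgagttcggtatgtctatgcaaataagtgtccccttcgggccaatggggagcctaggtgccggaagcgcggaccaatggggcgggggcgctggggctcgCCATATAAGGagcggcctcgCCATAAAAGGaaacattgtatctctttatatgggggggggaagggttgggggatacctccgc
Fhl1 (chrX:56779433-56779682, plus strand): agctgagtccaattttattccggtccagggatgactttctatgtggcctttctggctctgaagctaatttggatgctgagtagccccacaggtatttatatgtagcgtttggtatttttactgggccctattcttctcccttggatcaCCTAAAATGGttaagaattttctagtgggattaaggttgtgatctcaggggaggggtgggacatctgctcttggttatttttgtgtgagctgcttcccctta
Acta2 (chr19:34255374-34255623, minus strand): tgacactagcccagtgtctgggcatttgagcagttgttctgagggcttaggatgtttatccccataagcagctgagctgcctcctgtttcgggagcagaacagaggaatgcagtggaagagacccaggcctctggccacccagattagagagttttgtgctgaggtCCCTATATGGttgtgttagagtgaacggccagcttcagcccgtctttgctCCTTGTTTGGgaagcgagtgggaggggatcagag
Srf holds CCATATAAGG starting 82 bases before the transcription start and CCATAAAAGG starting 62 bases before it, and Fhl1 holds CCTAAAATGG starting 102 bases before. Fhl1 has a further start site, whose window holds no box. In Acta2 the near matches CCCTATATGG and CCTTGTTTGG start 84 and 34 bases before. The measured genes with a box had log2 differences of 0.49 in Fhl1, 0.16 in Srf, 0.04 in Vcl, -0.10 in Fhl2 and -0.10 in Ldb3.

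Within each pool, the vessel wall genes Des, Synpo2, Pgm5 and Myocd, the broad cytoskeletal gene Fhl1 and the shared gene Myh11 were set against Acta2 and against Tagln, which removes any scaling of the array. Absolute log2 ratios between probesets have no meaning, so only their differences between pools are given, for genes chosen after their values were seen. The log2 ratio of Des to Acta2 was 0.57 higher after tamoxifen, that of Synpo2 0.51, that of Pgm5 0.49, that of Fhl1 0.47, that of Myocd 0.35 and that of Myh11 0.27. Over Tagln the same differences were smaller, at 0.46 for Des, 0.41 for Synpo2, 0.38 for Pgm5, 0.37 for Fhl1, 0.24 for Myocd and 0.16 for Myh11. In each of these ratios all tamoxifen pools lay above all control pools. The choice of genes largely set this outcome, so it adds no support. The groups already did not overlap in each of them, and Acta2 and Tagln differed little. Summarised per pool as the median deviation from the gene means over all 6 pools, the vessel wall class was at 0.22, 0.01 and 0.19 in tamoxifen pools and at -0.18, -0.12 and -0.08 in control pools. The shared class was at 0.02, -0.0008 and 0.11 in tamoxifen pools and at 0.01, -0.14 and -0.08 in control pools. The vessel wall class thus did not overlap between groups, with tamoxifen 2 near the middle, and the shared class did overlap. The gap between the class medians was 0.20, 0.02 and 0.09 in tamoxifen pools and ran from -0.19 in control 1 to 0.02 in control 2, so tamoxifen 2 and control 2 had the same gap.

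**Figure D3:**
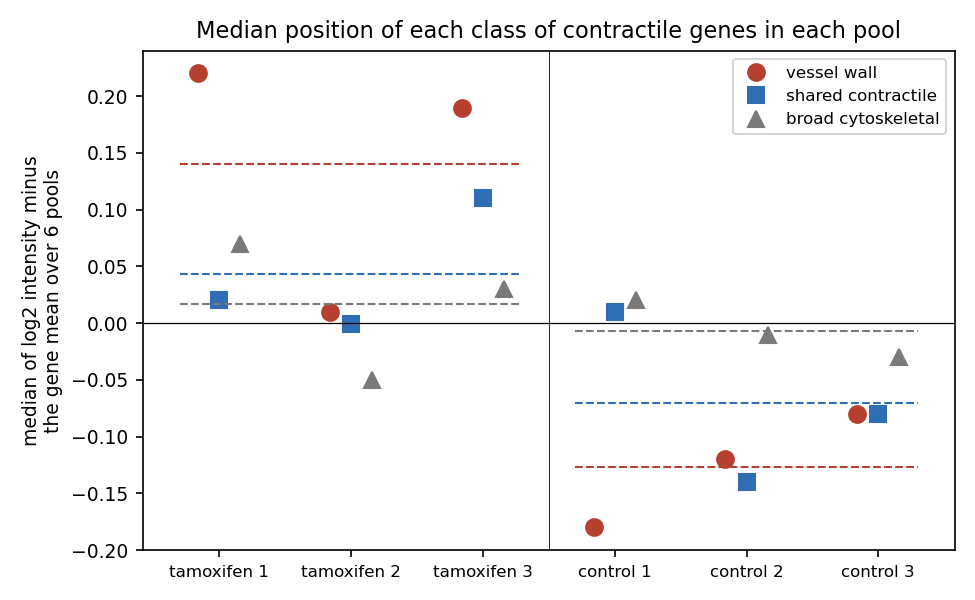
Median over the genes of a class of log2 intensity minus the gene mean over 6 pools (vertical axis), for each pool (horizontal axis), with dashed lines at the group means of these medians. Vessel wall genes lie at 0.01 to 0.22 in tamoxifen pools and at -0.18 to -0.08 in control pools, whereas the shared genes (-0.0008 to 0.11 and -0.14 to 0.01) and the broad cytoskeletal genes overlap between groups.

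Further genes of the vessel wall and of contraction control were read from lists chosen for this purpose. A gene that rose stood in the list of contraction control, and none in that of further vessel wall genes. Of 24 measured further genes linked to the vessel wall, 9 were higher after tamoxifen at an unadjusted p under 0.05 and 0 lower. Over all probesets these shares were 6.55% and 5.87%. The list is not limited to genes of pericytes and smooth muscle, as it also holds ligand genes such as Angpt2 and Pdgfb. By limma or the methods' t-test 0 rose and 0 fell, and the median log2 difference was 0.20. Itga7, a laminin-binding integrin of muscle, had 266, 228 and 254 in tamoxifen pools and 164, 186 and 198 in control pools (log2 difference 0.45, adjusted p = 0.170 from limma). Mustn1, a gene of the musculoskeletal system, had a log2 difference of 0.49, Foxf1, a transcription factor of visceral mesenchyme, 0.58, and Nrip2, a nuclear receptor interacting protein, 0.32. In these 4 genes the groups did not overlap. All tamoxifen pools lay above all control pools in 10 of the 24 genes, against 9.79% of all probesets, and below them in 1, Angpt2, an angiopoietin (log2 difference -0.21), against 11.2%.

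Of 29 measured genes of contraction control, 1 rose and 0 fell by limma, and 0 passed by the methods' t-test. Pde5a, the phosphodiesterase that breaks down cyclic GMP and so limits relaxation, was represented by a probeset with 950.2, 1150.1 and 1139.8 in tamoxifen pools, against 371, 481 and 526 in control pools. The groups were far apart, with a log2 difference of 1.24 (SE 0.15), an FC of 2.37 and an adjusted p of 0.0431. A further probeset of Pde5a gave 1.18 (adjusted p = 0.0194). The call on the first probeset was lost when any 1 pool was left out, with log2 differences of 1.10 to 1.35. Gucy1b1, a subunit of the guanylate cyclase that makes cyclic GMP, had a log2 difference of 0.41 (adjusted p = 0.116) and Itga5, the fibronectin receptor chain, 0.42 (adjusted p = 0.144). Agtr1a, a receptor for the vasoconstrictor angiotensin II, went the other way, with 1103, 921 and 1131 in tamoxifen pools and 2822, 1988 and 1860 in control pools. It was lower in every tamoxifen pool than in any control pool, with a log2 difference of -1.06 (adjusted p = 0.0906). At an unadjusted p under 0.05, 8 of the list were higher and 1 lower, against 6.55% and 5.87% of all probesets, and the median was 0.05.

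Markers of other cell types that a collagenase digest can hold were in part higher after tamoxifen as well. The counts for these lists are at an unadjusted p under 0.05, where 6.55% of all probesets were higher and 5.87% lower, so that counts such as 1 of 11, 2 of 17 or 2 of 19 lie near that share. On this measure 6 of 12 endothelial markers were higher and 0 lower. Their median log2 difference was 0.23, and in 10 of the 12 all tamoxifen pools lay above all control pools (9.79% of all probesets). Their summed intensity was 18426 to 19623 in tamoxifen pools and 14582 to 17354 in control pools. Tek, an endothelial receptor for angiopoietins, had a log2 difference of 0.39, and Vwf, von Willebrand factor, 0.43. Of 10 adipocyte markers 5 were higher and 1 lower, with a median of 0.28 and sums of 8858 to 9953 after tamoxifen and 7773 to 8498 in controls. Of 5 Schwann cell markers 4 were higher and 0 lower, with a median of 0.47 and sums of 8979 to 9601 in tamoxifen pools and 6200 to 7424 in control pools. Pmp22, a protein of peripheral myelin, had a log2 difference of 0.47 and Mbp, myelin basic protein, 0.60, although Sox10, a defining factor of Schwann cells that mammary epithelium can also express, had -0.27. The sums are not amounts of a cell type, since the brightest genes weigh most in them. Pmp22 alone had 6624 to 7068 in tamoxifen pools and 4365 to 5382 in control pools. The adipocyte marker Cd36 had 4010 to 4198 in tamoxifen pools and 3237 to 3681 in control pools. The part of these cells in the differences of the vessel wall genes was not tested, and in pooled cells more cells of a type and more RNA per cell cannot be told apart.

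Skeletal muscle, which lies near the inguinal gland, shares Des, Synpo2, Pgm5, Casq2, Ldb3 and Fhl1 with the list. Of its 19 markers 2 were higher and 0 lower, with a median of 0.09. Summed intensity over the 19 was 1653 to 1814 in tamoxifen pools and 1528 to 1627 in control pools. The lowest single intensity was 20.4, beside 4.396 over all probesets. The 2 markers that were higher, Casq1 and Myl1, had 36.6 to 47.2 and 31.6 to 52.8 over all pools. Both lay below the array medians of 129.5 to 136.3. These values do not show whether skeletal muscle RNA was present. Ckm, the muscle creatine kinase, had 122, 101.5 and 114 after tamoxifen and 96.7, 99.8 and 100.02 in controls, and Acta1, the skeletal muscle actin, had a log2 difference of 0.13. Of 11 fibroblast markers 1 was higher and 1 lower, with a median of 0.02 and sums of 24318 to 26250 in tamoxifen pools and 24624 to 25466 in control pools. Of 10 leukocyte markers 0 were higher and 0 lower, with a median of 0.14.

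The medians of the epithelial lists lay on the other side of 0. Of 17 basal markers 2 were higher and 1 lower, with a median of -0.12 and sums of 20135 to 21469 after tamoxifen and 21509 to 25416 in controls. Of 14 luminal markers 2 were higher and 3 lower, with a median of -0.09 and sums of 46388 to 49097 in tamoxifen pools and 48352 to 49664 in control pools. The basal genes with the smallest p went both ways, with log2 differences of -0.92 in Krt15, 0.38 in Dll1 and 0.24 in Itgb4. In each of them the groups did not overlap. Krt5 and Krt14, the keratins of myoepithelial and other basal cells, had log2 differences of -0.29 and -0.14. Without control 1, where Krt5 had 2943 against 2144 and 2212 in the other controls, these were -0.14 and -0.09. None of the genes on these 8 lists of cell type markers passed the adjusted threshold in limma, and none did in the methods' t-test.

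**Figure D4:**
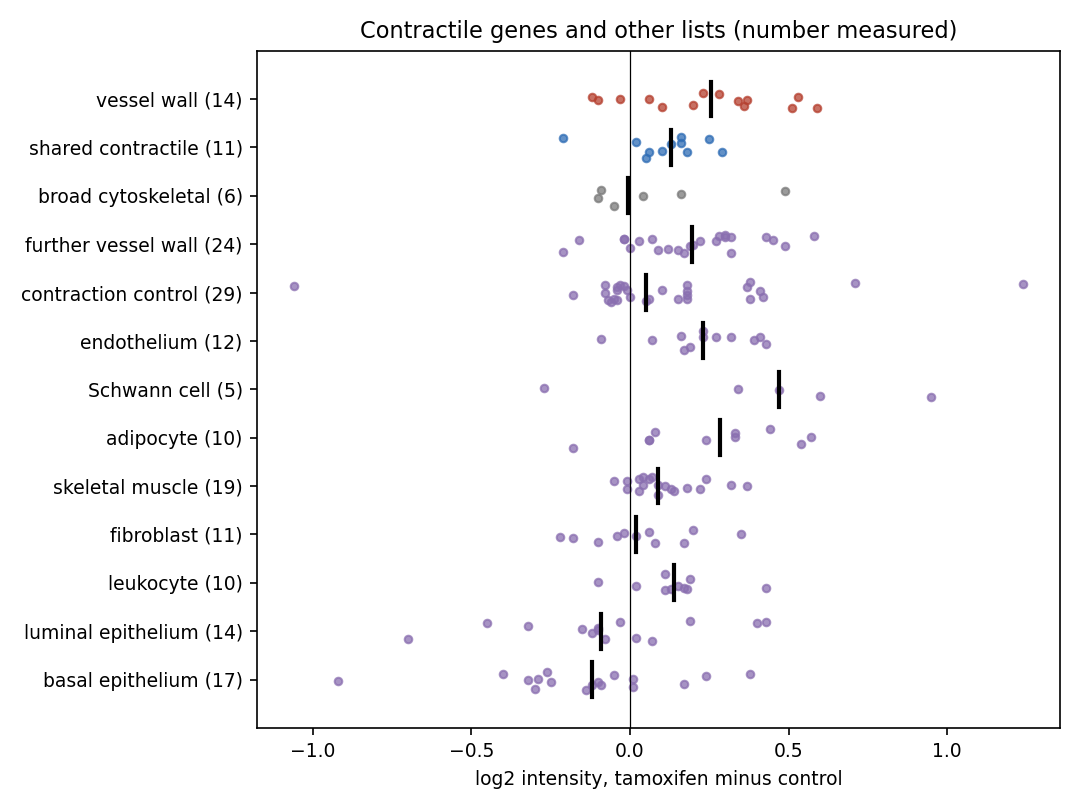
Log2 difference (tamoxifen minus control, horizontal axis) of single genes (points) in the 3 classes of contractile genes and in the other lists, with the number of genes measured in parentheses and the median as a bar. Medians of 0.26 in vessel wall genes, 0.20 in further vessel wall genes and 0.23 in endothelial markers lie to the right of 0, and those of luminal (-0.09) and basal (-0.12) epithelium to the left.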

How the data were processed

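The authors deposited 1 linear intensity per probeset and array, for 22369 probesets. The submitters' notes on processing list MAS5 and the build mm9, with no word on what each was used for, and how the arrays were scaled to each other is not known from the labels or the methods. The array is a Mouse Exon 1.0 ST type by the labels and a Mouse Gene 1.0 ST type by the methods. A single gene symbol was annotated for 18286 probesets, several for 1276 and none for 2807. Older symbols in the lists were matched through synonyms in the RefSeq gene table (GRCm38.p6), from which no coordinates were taken. The promoter windows carry their own.

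No filter was applied and no offset was added before the log2 step. Each probeset was fitted with limma 3.58.1 in R 4.3.3 (lmFit and eBayes, group as the only term), and two-sided p-values were adjusted by Benjamini-Hochberg over all probesets. The fit was tested on simulated data. The methods' t-test was the equal-variance one on the same values. Promoters were searched and plots drawn in Python 3.11.15.

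The genes and lists were chosen with earlier results of these data known. Intensity in every pool was given for the 4 genes of each class with the smallest p and for the 2 brightest. Cspg4, Pdgfrb, Pln, Casq2, Actg2 and Oxtr were added after their values were seen. Of the other lists, genes past the adjusted threshold and up to 4 with the smallest p were named. Krt5, Krt14, Krt18, Angpt2, Sox10, Ckm, Acta1, Dcn, Cdh5, Cd36, Rgs5, Notch3, Heyl and Cox4i2 were added after their values were seen. The labels name no batch, and the number of arrays limits the precision. Alternatives were the t-test, another variance model, weighted arrays, other scalings, filters on dim probesets, an offset, other rules for genes with several probesets, a replicate block and leaving out arrays.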

Additional observations from a re-analysis of the deposited data

How the results depend on the processing

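Of the 31 genes, 24 kept the sign of their log2 difference under all 18 alternatives run, 17 of them planned. With array weights the sign turned in Pdgfrb (0.04), Ldb3 (0.003) and Pdlim3 (0.06), and with quantile normalization in Acta2 (-0.03). Leaving out 1 array at a time gave -0.11 to 0.05 for Pdgfrb, -0.14 to 0.27 for Casq2, -0.17 to 0.02 for Ldb3, -0.21 to -0.01 for Pdlim3, -0.01 to 0.05 for Acta2, -0.01 to 0.10 for Smtn and -0.10 to 0.01 for Pdlim7. Without control 1 and tamoxifen 2 together, a setting chosen after seeing the data, Pdgfrb had 0.07, Ldb3 0.08, Pdlim3 0.06 and Pdlim7 0.01.

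Counts of adjusted calls over all probesets, 63 higher and 24 lower, moved to 15 and 2 by the t-test, 136 and 54 with a variance trend and robust estimation, 356 and 163 with array weights, 106 and 38 with a filter at the 25th percentile, 129 and 65 with a filter at the median, 116 and 45 with an offset of 32, 18 to 27 and 2 to 6 with 1 array left out, and 4 and 0 without control 1 and tamoxifen 2. Among the 31 genes, 0 higher in the main test became 1 with the trend, the 25th percentile filter, the offset or the mean of a gene's probesets (Synpo2 in each), 2 with the median filter (Synpo2 and Des) and 3 with array weights (Synpo2, Des and Fhl1). Thus 2 of the vessel wall and 1 of the broad cytoskeletal genes were called with array weights. The cause was not tested.

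Genes higher at an unadjusted p under 0.05 numbered 11, and 19 with array weights, 7 to 13 with 1 array left out and 16 without both arrays. The 8 vessel wall genes became 5 to 9 with 1 array left out. The 2 shared genes became 7 with array weights, 1 to 5 with 1 array left out and 5 without both arrays, and the 1 broad cytoskeletal gene became 2 with array weights, 1 to 2 with 1 array left out and 2 without both. Shares of all probesets at this p are not given for these settings. Adjusted higher calls over all probesets also went from 63 to 356 with array weights. These counts therefore cannot be read as particular to the listed genes. The shared median of 0.13 was 0.20 with array weights, 0.09 to 0.19 with 1 array left out and 0.20 without both arrays, and the median over all 31 genes, 0.16, was 0.22, 0.11 to 0.21 and 0.23. Same-numbered pools did not deviate together over all probesets (r of 0.0541, 0.00722 and -0.0424). Pools of unlike number had r of -0.0628 to 0.0686. With 3 pools per group this check cannot decide whether the numbers pair pools, and the labels do not say. With the replicate block the adjusted calls were 13 higher and 2 lower, 1 shared gene was at an unadjusted p under 0.05, and 9 of the 11 genes remained, without Mylk and Synm. Pde5a lost its call with the block, by the t-test, with any 1 array left out and without both arrays.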
